A study of Drosophila melanogaster with 2 samples.

Results

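The regions described here are the summits of ChIP-seq peaks of the CG6276 protein that lay inside an annotated exon and away from any transcript start in Drosophila melanogaster prepupae. A summit is the base of highest signal in a peak. A summit was a member where it fell inside an exon, untranslated region (UTR) or coding sequence of the Ensembl annotation, transposable elements left out, and more than 500 bp from every annotated transcript start on chromosomes 2L, 2R, 3L, 3R, 4 and X of build dm6. Of the 7326 summits of the thresholded list, 207 met the rule (2.83%, 95% Wilson interval 2.47% to 3.23%). They were 69 in 5′ UTRs, 14 in coding sequence, 53 in 3′ UTRs and 71 in other exons, called non-coding exons here. Of these 71, 70 lay in genes for non-coding RNA. The 207 summits lay in 204 distinct peak intervals, since 6 members shared an interval with another member. The thresholded list is the peaks that the authors kept by the irreproducible discovery rate (IDR), a measure of how well peak ranks hold between replicates. A further 715 exonic summits lay within 500 bp of a start and were not members. The animals were whole prepupae of pooled sex from 1 stable transgenic line, CG6276-GFP, whose CG6276 protein carries an eGFP tag (a green fluorescent protein) at the C-terminal end. An anti-GFP antibody pulled down this fusion from chromatin sonicated to 200 to 800 bp. The only group was this line in 2 biological replicates, numbered 2 and 4. The labels give the age as 72 days beside the prepupal stage. The labels name a possible control experiment, which was not analysed here, and the sequencing depth is unknown.

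Exons of a gene hold the sequence that remains in the mature RNA. The 5′ UTR lies before the coding sequence, often close to the promoter, and in long fly genes a 5′ UTR exon of one transcript is often part of an intron of another. The 3′ UTR lies after the coding sequence at the end of the transcript, and long non-coding RNAs (lncRNAs) have exons without a reading frame. ChIP-seq with a GFP tag reads where a protein sits on DNA, directly or through partners, and a peak in an exon says nothing about binding to the RNA of that exon. Whole animals mix all tissues, so a peak in a few cells and a weaker peak in many cells cannot be told apart.

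The sequence at the strongest members is shown because the CAGTG core and the GAGAG core are the motifs whose position or share the results below turn on. Each line gives 29 bases of the dm6 sequence, 5′ to 3′ on the strand of the match, with the 5 matching bases in capitals. The matches are those nearest the summit, within 100 bp of it, in members that were among the 15 strongest or the 3 strongest of their class, with the members of 1 chromosome arm not shown. CAGTG was found at chr3R:17704310-17704338 (minus strand), chr3L:636700-636728 (minus), chrX:6599553-6599581 (minus), chrX:12754438-12754466 (plus), chrX:17625072-17625100 (plus) and chrX:4686408-4686436 (plus), in this order.
lncRNA:CR46035: cagcttatgtttCAGTGtactgcctcgtt
lncRNA:CR43334: aatggggcggtaCAGTGggtcggattggt
APC7: tgattacagtaaCAGTGccaagagcgtag
lncRNA:CR44619: aacaatgaggtaCAGTGagcaccagacac
stas: tactcatacgcaCAGTGaagaaccagttt
Pp2C1: cgctgtgacgggCAGTGcaagcgggacga
GAGAG was found at chr2L:479139-479167 (minus), chrX:17178788-17178816 (minus), chr3R:18197136-18197164 (plus), chrX:15069580-15069608 (minus), chrX:4686367-4686395 (minus) and chr3R:25493971-25493999 (plus), in this order.
cbt: gtgagtgcgagcGAGAGgccgcagctgaa
baz: aagagcgagagaGAGAGcgcaagatcgcg
Ssdp: gaagagcagaggGAGAGagagaaaaagag
Lsd-2: agacccaagaaaGAGAGttggtgcggaag
Pp2C1: gcgagagcgggaGAGAGaaaggcctgagt
CG33494: gatgaccgattcGAGAGcaaagactaagt
Pp2C1 has both cores within 100 bp of its summit.

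The 4 kinds of exon differed widely in how many summits they held per base. Summits fell at 66.2 per Mb of 5′ UTR and 64.7 per Mb of non-coding exon, against 68.7 per Mb of intron and 130.8 per Mb of sequence within 500 bp of a start. The density was 8.94 per Mb of 3′ UTR and 0.762 per Mb of coding sequence, against 30.7 per Mb of intergenic sequence. Apart from the class within 500 bp of a start, all class sizes counted only bases more than 500 bp from a start. Bases that could hold a member made up 19.75% of the 6 chromosomes, so the members' 2.83% of summits was 0.143 times their share of bases. Coding sequence alone was 13.7% of the bases and held 14 of the 7326 summits, 0.0139 times its share. The gap between these classes was present in each replicate alone, while 5′ UTR and non-coding exon changed places in replicate 2: among the strongest 7326 peaks of replicate 2, the densities were 64.2 per Mb of 5′ UTR, 1.03 of coding sequence, 9.61 of 3′ UTR and 65.6 of non-coding exon. In replicate 4 they were 68.1, 0.925, 8.77 and 63.8 per Mb. The intervals of 5′ UTR, non-coding exon and intron overlap, and those of 3′ UTR and coding sequence overlap with no other class, as the plot of density by class shows. G and C made up 53.4% of the bases of coding sequence, 45.7% of 5′ UTR, 41.4% of non-coding exon, 35.2% of 3′ UTR and 39.7% of intron, and the part of base composition in the densities was not tested.

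**Figure D1:**
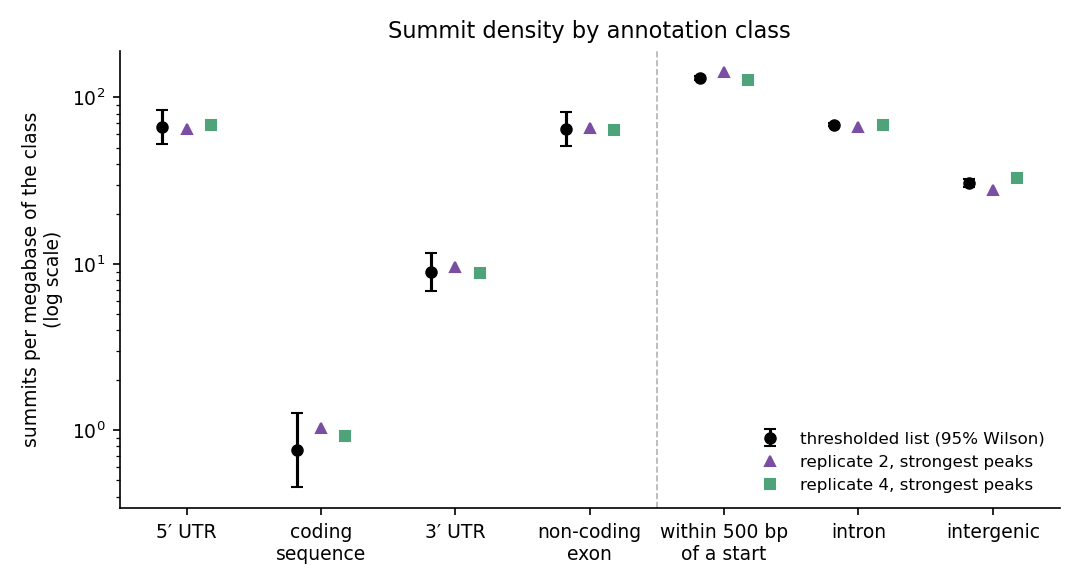
Summits per megabase of each class on a log axis, for the thresholded list (circles, 95% Wilson intervals, counting error only) and for the strongest 7326 peaks of replicate 2 (triangles) and replicate 4 (squares); the 4 exonic classes stand left of the dashed line. The 5′ UTR and non-coding exon values lie near the intron value of 68.7 per Mb, and the coding sequence value lies at 0.762 per Mb.

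The authors' pooled list of 30000 peaks and background entries gave the same classes before thresholding. It held 1252 exonic summits away from starts, of which 241 (19.25%) shared at least 50% of both lengths with a thresholded peak, against 28.1% of the other pooled summits. The difference was -8.90 percentage points (95% Newcombe interval -11.1 to -6.56), and over the whole pooled list the share was 27.8%. The classes differed among themselves. Of 361 pooled summits in coding sequence, 18 had such an overlap with a thresholded peak (4.99%, interval 3.18% to 7.74%). The share was 27.8% in 5′ UTRs, 25.3% in non-coding exons and 21.9% in 3′ UTRs. The share for 5′ UTRs differed from that of all other pooled summits by 0.0247 points (-4.95 to 5.60). An overlap is wider than being in the thresholded list. Identical peaks were 14 in coding sequence (3.88%), 24.9% in 5′ UTRs, 21.1% in non-coding exons and 19.1% in 3′ UTRs. The pooled list itself was sparse in coding sequence, with 19.7 summits per Mb against 302 per Mb of intron.

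The strongest members were in lncRNA exons and in 5′ UTRs. The authors' signal value, a score used here only to rank peaks within 1 list, had a median of 219.9 over the 207 members and 252.5 over the other thresholded peaks, and ran from 139.5 to 4211 among the members. Of the members, 43.0% lay above the median of the whole list, against 50.2% of the others (difference -7.21 points, -13.9 to -0.299). Medians by class were 255.4 for non-coding exons, 214.7 for 5′ UTRs, 212.0 for 3′ UTRs and 199.0 for coding sequence. The share above the median was 52.1% in non-coding exons and 38.2% in UTRs and coding sequence together, and that difference of 13.9 points had an interval that includes 0 (-0.295 to 27.5). The 15 strongest members comprised 8 in 5′ UTRs, 4 in non-coding exons, 3 in 3′ UTRs and 0 in coding sequence.

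**Figure D2:**
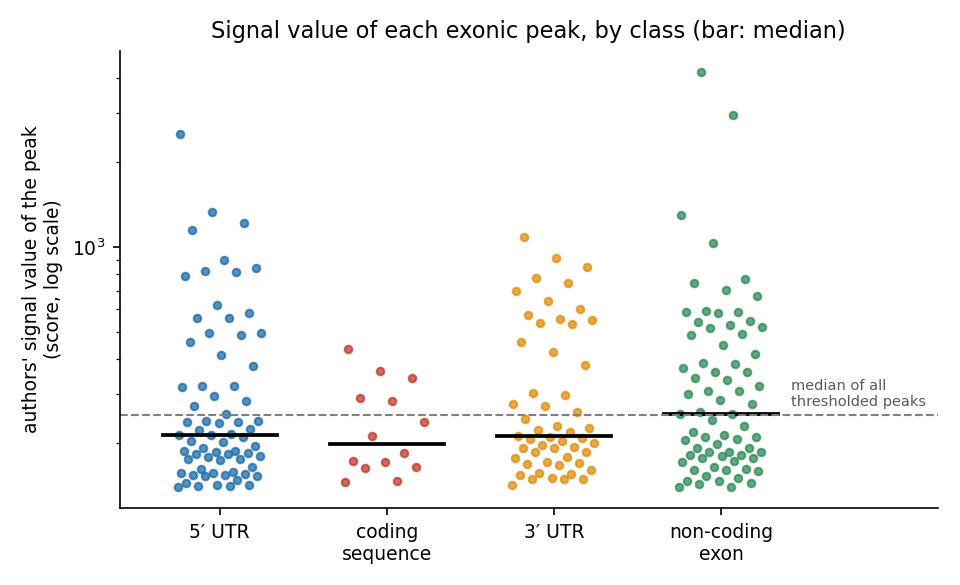
The authors' signal value of each of the 207 exonic summits on a log axis, by class. Each point is a summit, black bars are class medians and the dashed line is the median of all thresholded peaks, 251.5. The points above 2000 are lncRNA:Vinr and lncRNA:CR46035 in non-coding exons and cbt in a 5′ UTR, and no coding summit passes 434.8.

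The first-ranked member lay in the single exon of lncRNA:Vinr on chromosome X (peak 12750823 to 12751696), the peak ranked 3 in the thresholded list. Its signal value was 2122 in replicate 2 and 1957 in replicate 4, where it ranked 3 and 4, and its summits in the replicates lay 16 bp and 2 bp away. A weaker summit further upstream in the same exon, at 12750415, had 243.9 in replicate 2 and 182.6 in replicate 4. The first-ranked summit lay 528 bp upstream of the start of the neighbouring lncRNA:CR44619, just past the 500 bp limit. That gene held 2 members, both summits of the same peak interval, of which the stronger had a signal value of 1030. That peak was 949 bp wide and overlapped a peak in both replicate lists, but it matched neither under the 50% rule, since most replicate peaks were 436 bp wide. The second-ranked member was in lncRNA:CR46035 on chromosome 3R (17704205 to 17704692), with 1491 in replicate 2 and 1445 in replicate 4, where it ranked 22 and 18. Both lncRNA peaks were also among the strongest peaks of each replicate list. They were picked by signal value in the list made from both replicates, so this partly follows from the choice.

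The long lncRNA:CR43334 on chromosome 3L (628435 to 643900, plus strand) held 8 members, more than any other gene. The gene contains mir-ban (642208 to 642288), the precursor of bantam, a growth-promoting miRNA of flies. The 8 summits ran from 629212 to 640770, so all lay before the miRNA, and 2 further thresholded summits of the gene lay within 500 bp of a start. The strongest, at 636630, had 700.9 in replicate 2 and 597.0 in replicate 4. The next, at 634816, had 299.7 and 410.8 in replicates 2 and 4, and the summit at 640770 had 216.8 and 319.5. The summits at 629212 and 629996 matched only 1 replicate each, replicate 4 and replicate 2. Beside lncRNA:CR43334, 10 other hosts contained a miRNA gene, on either strand: lncRNA:CR43650 held 2 members and mir-8, lncRNA:CR46004 held 2 members and mir-276b, and the other 8 hosts held 1 member each. The share of all annotated genes that contain a miRNA gene was not computed. These counts are therefore a description only and show no link between members and miRNA genes. The 2 members in lncRNA:CR43650 had 305.8 and 250.3 in replicate 2 (ranks 1169 and 1595) and 295.3 and 331.0 in replicate 4 (ranks 1106 and 894). The stronger summit in lncRNA:CR46004 had 302.7 in replicate 2 (rank 1188). Its matched peak in replicate 4 had 61.1 (rank 8992), with a summit 205 bp away that may be a different one.

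Of the 71 members in non-coding exons, 67 lay in genes named as lncRNAs, 3 in antisense RNAs and 1 in the protein-coding gene Acadvl. The Acadvl summit was exonic in the Ensembl canonical transcript, at a base annotated neither as UTR nor as coding sequence. Its summits in replicates 2 and 4 fell in 3′ UTR and in coding sequence. Single-exon transcripts held 41 of the 71, and 23 of the 71 lay inside more than 1 gene. Among 13 matched lncRNAs with known regulatory roles, 3 were hosts: Vinr, Hsromega and acal. In Hsromega, the heat-inducible RNA of the nuclear omega speckles, the member had 51.8 in replicate 2 and 158.3 in replicate 4. In acal, an RNA that acts on JNK signalling in the embryo, it had 90.9 in replicate 2 and 112.6 in replicate 4. For comparison, 1.01% of all 18164 annotated genes hosted a member, and long genes have more room for one.

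Among 5′ UTR members, the strongest was in cbt, which encodes the zinc-finger transcription factor Cabut (chromosome 2L, 478776 to 479414). Its signal value was 1346 in replicate 2 and 1180 in replicate 4, with ranks 29 and 36. It lay 525 bp from the start, just past the limit, and was exonic in 2 transcripts and intronic in 1. The Ensembl canonical transcript was not among those 2. The member in firl had 571.9 in replicate 2 and 753.8 in replicate 4. The stronger of 2 members in baz, which encodes the Par-3 polarity protein, had 612.2 and 610.5 in replicates 2 and 4. It lay 4526 bp from the nearest start, far from any promoter. The weaker member in baz had 84.9 and 92.1. In Ssdp, which encodes a cofactor of LIM-domain transcription factors, the stronger of 2 members had 573.3 in replicate 2 and 561.2 in replicate 4. The weaker member in Ssdp had 199.6 and 230.3. Raf, the kinase upstream of MEK, had 491.9 in replicate 2 and 405.0 in replicate 4, and Pp2C1, a protein phosphatase, had 379.3 and 433.7. The stronger of 2 members in the nuclear factor gene sbb had 441.9 in replicate 2 and 393.1 in replicate 4. Fbl6 matched replicate 2 only, at 471.5, and overlapped no peak in replicate 4. The gene spen, whose product is a nuclear cofactor in several signalling pathways, held 3 members within 1 kb, with 262.0, 201.1 and 128.8 in replicate 2 and 239.8, 148.0 and 101.3 in replicate 4. None of these 3 was exonic in the Ensembl canonical transcript, and each was intronic in 4 transcripts.

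The 3′ UTR members were led by APC7, a subunit of the anaphase-promoting complex (chromosome X, 6599339 to 6599638), with 601.9 in replicate 2 and 491.3 in replicate 4. The APC7 summit lay 577 bp upstream of a start of the gene pigs. Lsd-2 encodes a perilipin that coats lipid droplets, and its 3′ UTR held 3 members. Each was exonic in 1 transcript, not the one that Ensembl marks as canonical. The strongest and the next are summits of the same peak interval. The strongest had 377.7 in replicate 2 and 514.7 in replicate 4, and the others had 209.7 and 133.5 in replicate 2 and 358.3 and 77.8 in replicate 4. The member in stas had 479.3 in replicate 2 and 376.3 in replicate 4, and it too was not exonic in the canonical transcript. The 3′ UTR summits lay near gene ends as 3′ UTRs do: 77.4% were within 500 bp of a transcript end (interval 64.5% to 86.6%), against 68.7% of 3′ UTR bases. The nearest start was one of the host's own for 30 of the 53.

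The 14 coding members had the lowest median signal value of the 4 classes. Their hosts were CG5895, CG33494, Dph4, CG13784, bif, Socs36E, zormin, Sesn, Snx27, CG1632, l(1)G0196, Rift, CG10353 and CG6356. CG5895 was the strongest (chromosome 3L, 16037035 to 16037263), with 222.6 in replicate 2 and 221.4 in replicate 4. Matches in both replicate lists were found for 9 of 14 (64.3%, 38.8% to 83.7%), and with any overlap counted, all 14 were present in both lists. Over all thresholded peaks these shares were 75.3% and 96.1%. Matches in neither were found for 3, those in Dph4, CG13784 and zormin, whose peaks were 178, 172 and 120 bp wide. Socs36E, a feedback inhibitor of JAK/STAT signalling, had 112.4 in replicate 2 and 87.0 in replicate 4, and Sesn, a stress-induced inhibitor of TOR signalling, had 91.0 and 95.3. Every coding value in a replicate was below those of the strongest members in cbt, firl, baz and Ssdp in the same replicate. These hosts were named for their strong members, so the comparison only describes a ranking. It does not hold for the weaker members of baz and Ssdp, which had 84.9 and 199.6 in replicate 2.

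Replicates 2 and 4 agreed on most members in position. Under the 50% rule 162 of 207 members matched a peak in both lists (78.3%, 72.2% to 83.3%), against 75.2% of the other thresholded peaks and 75.3% of the whole list. The difference was 3.05 points (-3.13 to 8.23). Another 16 (7.73%) matched neither list, against 525 of all 7326 thresholded peaks. With any overlap counted, 196 (94.7%) were present in both, against 96.1% of all thresholded peaks. Of the 45 members without both matches, 24 were too narrow or too wide to pass the rule against a 436 bp peak. Matched members had a median signal value of 124.8 in replicate 2 and 118.5 in replicate 4. The deposited values lay more than 3-fold apart between the replicates in 10 of the 162, with no shared scale stated for the lists. One of these was psq, where the replicate 2 summit lay 199 bp away within 500 bp of a start and had 724.1, against 91.5 in replicate 4. The median distance between a member's summit and its replicate summit was 14 bp, against 13 bp over all thresholded peaks. Both replicate summits also met the exonic rule for 142 of the 207. For that count and for the 10 members more than 3-fold apart, no value over the other thresholded peaks is given. Because the IDR procedure used both lists, these agreements are partly built into the thresholded list.

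**Figure D3:**
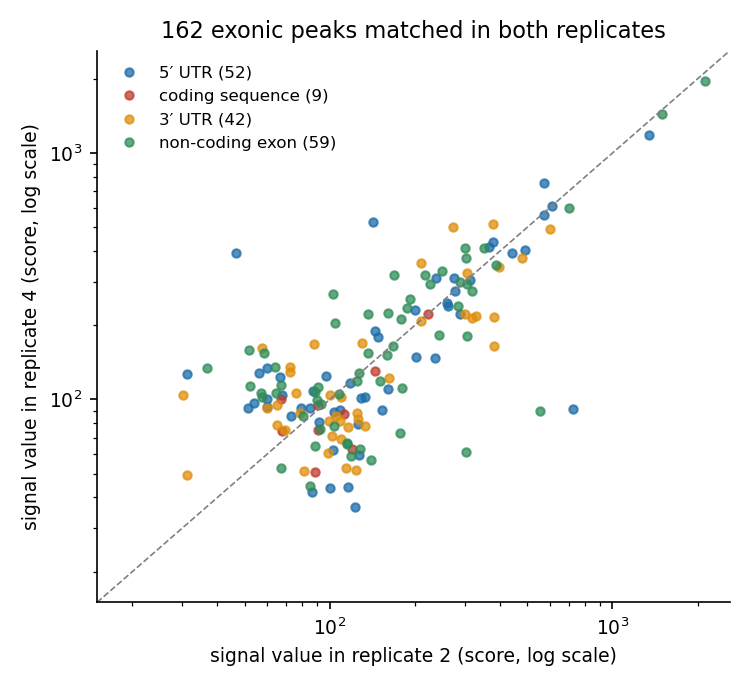
Signal value in replicate 2 (x) and replicate 4 (y), both on log axes, of the 162 members matched in both lists, coloured by class. The dashed line marks equal values, which are scores and not on a shared scale. The strongest lncRNA and 5′ UTR members lie near the line, and 10 members lie more than 3-fold apart.

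As a set, members lay nearer to transcript starts than the bases they could have occupied. By class, the share within 1000 bp exceeded that of the bases beyond its interval only in 5′ UTRs, and in 3′ UTRs it was lower. The mix of classes also differed: 5′ UTRs and non-coding exons made up 33.3% and 34.3% of members but 3.94% and 4.15% of the bases. The part of this mix in the difference for the set was not tested. The median distance to the nearest start was 1159 bp for members and 1937 bp for all bases that meet the rule. Of the members 46.9% (40.2% to 53.7%) were within 1000 bp of a start, against 23.5% of the bases. In 5′ UTRs the share was 71.01% (59.4% to 80.4%), against 42.7% of the bases. In coding sequence it was 42.9% of 14 (21.4% to 67.4%), against 23.6%. In non-coding exons it was 49.3% (38.0% to 60.7%), against 41.7%, and in 3′ UTRs it was 13.2% (6.55% to 24.8%), against 16.3%, and the intervals of these 3 classes hold the value of the bases. Of the 207 members, 31 (14.98%) were within 50 bp of an exon edge, against 14.6% of the bases. Just outside the limit, exonic summits in lncRNA:CR45353 at 500 bp and in Syp, Pp2C1 and Mekk1 at 496 bp had signal values of 155.8, 344.4, 274.0 and 145.5. Just inside it, lncRNA:CR45940 at 502 bp had 153.7 and CG33144 at 506 bp had 413.8.

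**Figure D4:**
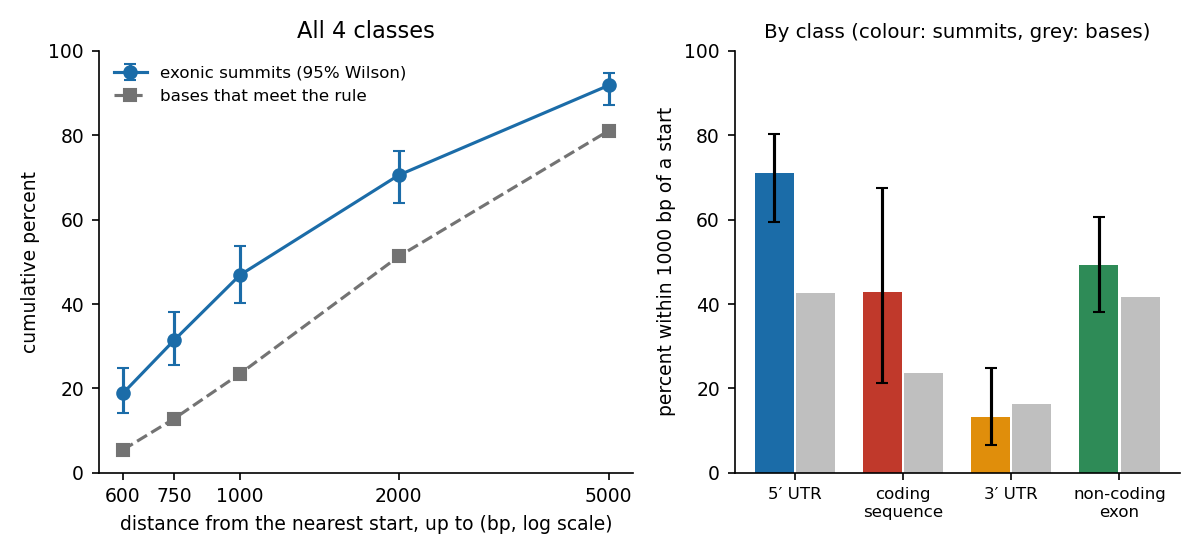
Left, cumulative percent of the 207 exonic summits (circles, 95% Wilson intervals) and of all bases that meet the rule (squares) up to each distance from the nearest transcript start on a log axis. Right, percent within 1000 bp of a start by class, for summits in colour and bases in grey; in 5′ UTRs it is 71.01% of summits and 42.7% of bases.

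Most members were exonic in the main transcript of the gene, but many in 5′ UTRs were intronic in another transcript. The Ensembl canonical transcript had the summit in an exon for 172 of 207. In 52 of 207, another transcript of the same gene had an intron there, and 38 of those 52 were in 5′ UTRs. These 38 were 55.1% of the 69 members in 5′ UTRs. The gene also had a thresholded peak within 500 bp of one of its starts for 95 members (45.9%, 39.2% to 52.7%). Against this stood 60.1% of the intronic summits, a difference of -14.3 points (-21.1 to -7.26). The rules differ: members counted only the gene of their exon, while intronic summits counted every gene that spans them. The wider rule can raise the intronic share, so the difference is not between like measures. With only the stronger 50% of peaks, which also leaves fewer promoter peaks, the members' share was 30.3%, and with a limit of 250 bp for both it was 30.3% as well. Counted by gene, 60 of 130 protein-coding hosts had such a promoter peak (46.2%), against 12.9% of the other protein-coding genes and 13.2% of all of them. Gene length and the number of starts differ between hosts and other genes, and their part was not tested. Another thresholded summit lay within 1 kb of 77 members (37.2%), against 34.2% of the other summits (difference 2.99 points, -3.40 to 9.84).

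Chromosome X held 56 members, 27.1% of them, against 19.8% of the other thresholded summits (difference 7.26 points, 1.59 to 13.8). Per megabase of bases that meet the rule there were 11.1 members on X, 9.30 on 3L, 7.62 on 2L, 6.71 on 2R and 5.55 on 3R, and 0 on chromosome 4, which had 8 thresholded summits in all. Of the 15 strongest members 8 were on X.

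Each of 5 gene lists held 0 to 3 hosts. As shares, these were 10.3% of the ecdysone list, 6.90% of the Polycomb and trithorax list and 23.1% of the regulatory lncRNA list. Of 29 genes of the ecdysone response, the steroid pathway that drives the prepupal stage, 3 were hosts: EcR and ftz-f1 through a 5′ UTR and Hr3 through its 3′ UTR. The member in ftz-f1, the nuclear receptor that makes prepupal tissue competent to respond again, had 235.3 in replicate 2 and 147.4 in replicate 4. The member in EcR, the ecdysone receptor gene, had 103.5 in replicate 2 and 88.6 in replicate 4, and that in Hr3 overlapped a peak in replicate 2 only. The EcR summit was not exonic in the Ensembl canonical transcript. Of 29 Polycomb and trithorax group genes, psq and skd were hosts, and skd, a Mediator subunit, had 277.8 in replicate 2 and 275.3 in replicate 4. Hosts numbered 0 of 25 Notch pathway genes and 0 of 20 genes for RNA-binding proteins of neurons and development. Against the 1.01% of all genes that host a member, these counts are given as a description, and no list was tested.

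Within 100 bp of the summit, GAGAG was more frequent in the members than in the other thresholded summits. GAGAG on either strand is the core bound by the GAGA factor, and it can overlap itself in longer runs. It was present in 80 of 207 member windows of 201 bp (38.6%, 32.3% to 45.4%), in 28.3% of the other thresholded windows (difference 10.3 points, 3.89 to 17.2) and in 27.5% of exonic pooled summits outside the thresholded list (difference 11.1 points, 4.11 to 18.4). It was in 35.6% of the windows of summits within 500 bp of a start, a value inside the members' interval. With a limit of 1000 bp from a start, GAGAG was in 31.8% of members (23.9% to 41.01%), an interval that holds the 28.3%. No excess over the other summits was shown at that limit. Windows 500 bp to the left and right of the members held it in 55 and 58 of 207 cases. Across all windows of the same length centred every 100 bases in sequence that meets the rule, 22.2% held it. By class, the share was 55.1% of the 69 members in 5′ UTRs (43.4% to 66.2%), against 37.2% of 5′ UTR summits of the pooled list outside the thresholded one (difference 17.8 points, 4.16 to 30.8) and 25.7% of all 5′ UTR windows (difference 29.3 points, 17.6 to 40.5). In 3′ UTRs it was 28.3% of members, 26.7% of such pooled summits and 18.96% of all windows, and in non-coding exons it was 29.6%, 25.4% and 21.2%. In coding sequence it was 42.9% of 14 members, 24.2% of such pooled summits (difference 18.7 points, -3.35 to 43.6) and 23.1% of all windows (difference 19.7 points, -1.76 to 44.3). The intervals of the differences from all windows included 0 in 3′ UTRs and non-coding exons too (-0.999 to 22.6 points in 3′ UTRs and -0.967 to 19.9 in non-coding exons). The excess was not tested between classes.

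CAGTG behaved otherwise. It was present within 100 bp in 79 of 207 members (38.2%), in 42.8% of the other thresholded windows (difference -4.60 points, -11.0 to 2.28) and in 37.4% of exonic pooled summits outside the list (difference 0.754 points, -6.30 to 8.16). Against all windows of the class, it was more frequent in 3′ UTR members (43.4% against 21.1%, difference 22.3 points, 9.81 to 35.6) and in non-coding exon members (43.7% against 29.2%, difference 14.4 points, 3.47 to 26.02). The differences in 5′ UTR members (31.9% against 32.4%, -0.519 points, -10.4 to 11.2) and coding members (21.4% of 14 against 39.4%, -18.0 points, -31.9 to 8.15) had intervals that include 0. Against exonic pooled summits of the same class outside the list, all 4 intervals included 0, with differences of 7.21 points (-6.93 to 21.9) in 3′ UTRs, 4.68 (-7.95 to 17.7) in non-coding exons, -2.69 (-14.8 to 10.7) in 5′ UTRs and -17.2 (-32.0 to 9.43) in coding sequence. Matches were more frequent beside the summit than at it. Of the printed matches, those of lncRNA:CR46035, lncRNA:CR43334, APC7, lncRNA:CR44619 and Pp2C1 are centred 83, 84, 82, 74 and 64 bp from the summit, and that of stas is 9 bp from it. Per 50 bp bin there were 0.217 matches per member from 100 to 51 bp on the low-coordinate side of the summit and 0.155 from 50 to 99 bp on the other side, and 0.0725 and 0.0870 in the bins on either side of the summit itself. The other thresholded summits had the same dip, with 0.183 and 0.185 in the outer bins and 0.104 and 0.104 in the inner ones. Exonic pooled summits outside the list had 0.101 and 0.137 in the outer bins and 0.108 and 0.144 in the inner ones, with no dip. G and C made up 38.7% and 38.6% of the member bases in the inner bins and 40.1% and 40.6% in the outer ones.

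**Figure D5:**
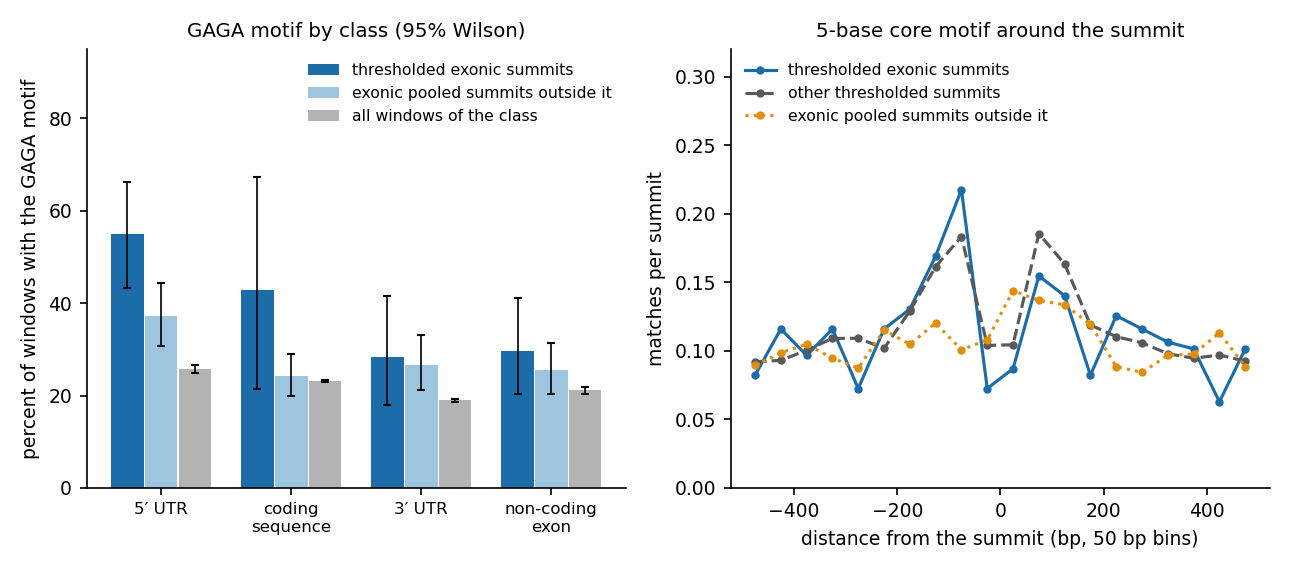
Left, percent of 201 bp windows with GAGAG on either strand in each exonic class, for thresholded exonic summits (dark blue), exonic pooled summits outside the thresholded list (light blue) and all windows of the class (grey), with 95% Wilson intervals. Right, CAGTG matches per summit in 50 bp bins from the summit for thresholded exonic summits (solid), other thresholded summits (dashed) and exonic pooled summits outside the list (dotted). The 5′ UTR members stand at 55.1% on the left, and the solid and dashed lines dip at the summit on the right.

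Across the 16 motifs searched, 5 of 32 intervals of differences excluded 0 before any adjustment for their number. Beside both for GAGAG, these were TATAAA, in 24.2% of members and 32.6% of the other thresholded windows, GCCAT, a core of Pho sites, in 26.1% of members and 34.6% of exonic pooled summits outside the list, and TGANTCA, in 6.28% of members and 3.08% of those pooled summits. Of the 13 members with TGANTCA, a core of the AP-1 site, 7 were in 3′ UTRs. Both CAGTG and GAGAG were present in 24 members and neither in 72. The median share of G and C in the windows was 39.3% in members, 35.8% in the other thresholded windows and 46.3% in exonic pooled summits outside the list, and its part in the motif shares was not tested. A match is a run of letters and does not show that a factor bound there.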

How the data were processed

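Peak lists on dm6 were analysed; the same lists on dm3 were not used, and no coordinate was converted. The authors deposited 30000 peaks per replicate, a pooled list of 30000 and an IDR-thresholded list of 7326, all without header lines. Each peak has a signal value, a score comparable within 1 list only, a capped −log10 q-value that the authors also deposited and that was not used, and the offset of its summit. The aligner, the caller, the IDR threshold and the depth were not given in the sources used here.

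Each base was put in the first class that applied, in this order: start region (up to 500 bp away), 5′ UTR, coding sequence, 3′ UTR, non-coding exon, intron, intergenic. Gene models were Ensembl release 115 (BDGP6.54). All peak ends lay within the Release 6 sequence (RefSeq), from which bases were read. A match between lists needed an overlap of 50% or more of each peak, and the closest summit decided among several. Shares have 95% Wilson intervals and differences 95% Newcombe intervals, unadjusted and covering counting error only. Peaks of the same libraries are not replicates, so no p-value was computed. Motifs were searched as exact letters on both strands, N standing for any base: CAGTG with no factor assumed, GAGAG (the Trl protein, also called GAGA factor), TATCGATA (DREF), CACGTG within the general E-box CANNTG (basic helix-loop-helix factors), AGGTCA (nuclear receptors), AGATAA (Pannier and its relatives), TAATTA (homeodomains), TGANTCA (AP-1), CAGGTAG (Zelda), TGTTTAC (forkhead factors), GTGGGAA (Suppressor of Hairless), GCCAT (Pho), TATAAA (core promoters), GGAATG (Scalloped) and ATTTGCAT (POU factors).

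The members named were the 15 strongest, the 3 strongest of each class, every coding member, those nearest the 500 bp limit and those in the 5 gene lists. Hosts named for several members or for a miRNA gene, and the GAGAG sequences, were chosen after their values were seen. The members, lists and motifs were chosen with earlier results of these data known. Classing and matching were checked on simulated data. Python 3.11.15, numpy 2.4.6, pandas 2.3.3 and matplotlib 3.10.9 were used.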

Additional observations from a re-analysis of the deposited data

How the results depend on the processing

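Over 106 recomputed values, 78 stayed within their interval (for the number of members, within 1.5 times) and 28 moved. With a limit of 250 bp from a start, 406 summits were members (5.54% of the list) and 30.3% had a host with a promoter peak. Of the exonic pooled summits, 26.1% then overlapped a thresholded peak by the 50% rule. With 1000 bp, 110 were members (1.502%), 15.8% of exonic pooled summits overlapped a thresholded peak and GAGAG was in 31.8% of windows. In the stronger 50% of peaks there were 89 members (2.43%), of which 41.6% were in non-coding exons, 30.3% had a host with a promoter peak and 10.1% were within 50 bp of an edge. With protein-coding exons only there were 137 members (1.87%), 12.4% inside more than 1 gene, and 17.1% of exonic pooled summits overlapped a thresholded peak. Matching by at least 1 bp found 94.7% of members in both replicates, and 22.3% of exonic pooled summits overlapped a thresholded peak. Matching by at least 80% of both lengths gave 54.6% and 16.7%. Identical peaks were 16.5% of exonic pooled summits. With 50 bp or 250 bp to each side, CAGTG was in 13.04% or 75.4% of windows and GAGAG in 21.7% or 62.8%. Edges within 25 bp or 100 bp held 6.28% or 24.2%. Using peak midpoints, joining overlapping peaks, or taking replicate 2 or replicate 4 alone moved none. In the replicate-alone settings 215 and 210 summits were members. The identical-peak setting and all settings for GAGAG were chosen after seeing the data. The share above the median signal was not run for the stronger peaks, where it is fixed by construction. No paired analysis was possible because there is 1 group and no test. Depth is unknown, so a missing peak may reflect depth; the cause of the shifts was not tested.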
